A study of Rattus norvegicus with 78 samples.

Results

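Hippocampal gene expression of aged rats classed as unimpaired in a water maze was compared between 21 days after training and the last training day. The comparison used every array whose title gave the group 21PT-AU (n = 10) or 5T-AU (n = 10), which made 20 of the 78 arrays of the series. Each value was the mean of 21PT-AU minus the mean of 5T-AU on the scale of log2(signal + 1), so that a positive value means a higher level 21 days after training.

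The animals were male F344 rats, of which the aged ones were 24 to 26 months old and the young ones 4 to 6 months old. They learned the place of a hidden platform in the Morris water maze. The authors called aged rats unimpaired or impaired from how they performed in the maze relative to young rats. RNA was taken from dorsal tissue of the left hippocampus, with 1 Affymetrix RAE-230A array per animal and different animals on each day.

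The group 21PT-AU held unimpaired aged rats killed 21 days after training, and 5T-AU held unimpaired aged rats killed on day 5, the last training day. NT-A (n = 10) held aged rats kept in the home cage without training. The same days were available for impaired aged rats in 21PT-AI (n = 9) and 5T-AI (n = 10), and for young rats in 21PT-Y (n = 9) and 5T-Y (n = 10). The hour of death is not given in the sources used here. The unimpaired rats were chosen by their performance, so they are a selected part of the aged animals.

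Training in the maze exposes rats to handling, swimming and novelty as well as to learning. Swimming raises circulating glucocorticoids, steroid hormones that enter the brain and, through the glucocorticoid receptor, activate genes such as Fkbp5, Tsc22d3, Sgk1, Per1 and, in oligodendrocytes, Gpd1. Neuronal activity induces immediate early genes, among them Fos, Arc and Egr1, within minutes, and their transcripts decay within hours. Period genes such as Per2 belong to the negative limb of the circadian clock, in which their proteins repress the activators Clock and Bmal1.

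The 20 arrays were alike in brightness. Median signals ran between 236.4 and 256.9 intensity units in 21PT-AU and between 239.6 and 256.3 in 5T-AU, and the number of arrays limits precision. Of 12 measures of array quality and maze performance, none passed adjustment in a two-sided permutation test with 100000 resamples. The lowest raw p-values were those of the 3' over 5' ratio of Gapdh, a sign of RNA integrity, and of the time to first entry in the probe trial. The first was log2 0.21 ± 0.08 in 21PT-AU and 0.31 ± 0.11 in 5T-AU (SD, n = 10 each, permutation p = 0.032, adjusted p = 0.201). The second was 5.58 ± 1.47 s in 21PT-AU and 8.12 ± 3.15 s in 5T-AU (SD, n = 10 each, permutation p = 0.0335, adjusted p = 0.201). Each of 10 scan days held 1 array of each group, and the 3 chip lots held 3, 3 and 4 arrays of each. Fluidics module was not balanced. Modules 1, 2, 3 and 4 of the station that washes and stains the arrays held 2, 0, 1 and 7 arrays of 21PT-AU, against 1, 2, 7 and 0 of 5T-AU. The letter that opens each animal's code, called the code letter here and not explained by the labels, was not balanced either. It was K in 3, M in 2 and N in 5 rats of 21PT-AU, and K in 1, L in 5 and N in 4 rats of 5T-AU.

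Markers of hippocampal neurons were expressed in both groups. Prox1, the transcription factor of dentate granule cells, had signals of at least 831.5 in 21PT-AU and 1184 in 5T-AU, and Wfs1, which marks CA1 pyramidal cells, of at least 518.4 in 21PT-AU and 990.3 in 5T-AU. However, replicates 2 and 5 of 21PT-AU stood apart from every other array of both groups in genes with regional expression, which were picked after their values were seen. Wfs1 signals were 518.4 and 556.2 in these 2 arrays, between 1065 and 1358 in the other 8 of 21PT-AU, and between 990.3 and 1553 in 5T-AU. Prox1 signals were 925.5 and 831.5 in the 2 arrays, between 1216 and 1422 in the other 8, and between 1184 and 1482 in 5T-AU. Both markers were therefore lower in this pair than in any other of the 20 arrays. Whole lists of such markers, as the mean log2 deviation over their genes, did not have both arrays below the other 8. CA1 markers were at -0.18 and -0.06, against -0.10 to 0.05 in the other 8. Dentate granule cell markers were at -0.04 and -0.22, against -0.09 to 0.37. Markers of thalamus, striatum and cortex were at 0.122 and 0.261, above the other 8 (-0.154 to 0.121). This was 1 of 5 lists, out of 40, in which both arrays lay above the other 8. The rest were the glycolysis, interneuron, neuropeptide, and synaptic vesicle and SNARE lists. Both arrays lay below the other 8 in 3 lists, those of RNA splicing, antigen presentation, and oligodendrocyte and myelin genes.

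Nr2f2, which encodes a nuclear receptor, was higher in the pair. Its signals were 502.3 and 580.8 in the 2 arrays, between 133.4 and 231.6 in the other 8 of 21PT-AU, and between 78.4 and 197.1 in 5T-AU. Neuronatin (Nnat) signals were 6197 and 6012 in the pair, between 2309 and 3577 in the other 8, and between 2520 and 3353 in 5T-AU. None of the other 76 arrays of the series was as high as this pair in Nr2f2, Nnat, Trhr or Tpd52l1, and none was as low in Prox1. Over all tested probe sets, 544 (5.25%) had both arrays above the other 8 of their group and 486 (4.69%) had both below. For genes and lists described below in which the pair lay apart, values without it are given there. In hippocampal tissue of mixed cells, fewer cells of a type and less RNA per cell cannot be told apart.

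**Figure D1:**
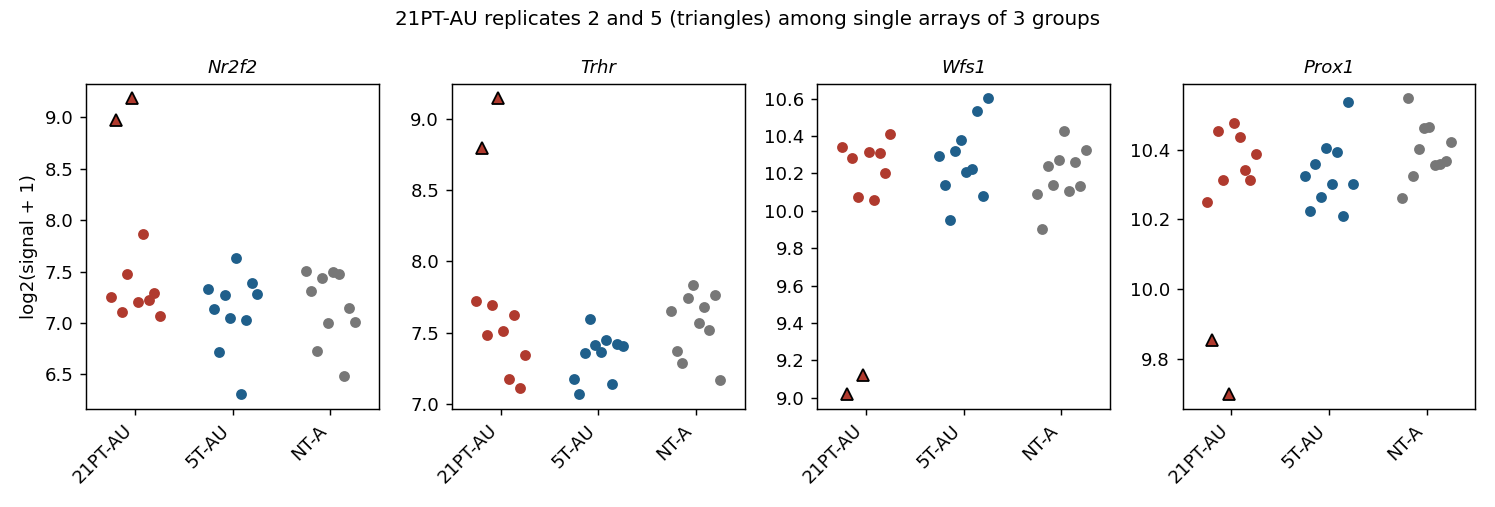
Signal of 4 genes on a log2(signal + 1) scale, with 1 point per array in 21PT-AU, 5T-AU and NT-A (n = 10 each). The triangles are replicates 2 and 5 of 21PT-AU, which lie above all other arrays for Nr2f2 and Trhr and below all others shown for Wfs1 and Prox1.

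No gene changed between the 2 times by the criterion used. Of 10371 probe sets tested with limma, 0 (0%) had a Benjamini-Hochberg adjusted p under 0.05, the lowest being 0.0748. At an unadjusted p under 0.05 there were 489 (4.72%), of which 196 (1.89%) were higher and 293 (2.83%) lower in 21PT-AU. No probe set had groups that did not overlap (0%). The changes were small, with the central bulk, from the 5th to the 95th percentile, lying between -0.15 and 0.17 and a median SE of 0.08. A change of more than 0.5 in either direction was found for 26 probe sets, and 10 of these had an unadjusted p under 0.05. The p-values here set each group difference against the spread between animals, pooled over all 8 groups of the 78 arrays. A p above the threshold does not show that levels were equal.

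**Figure D2:**
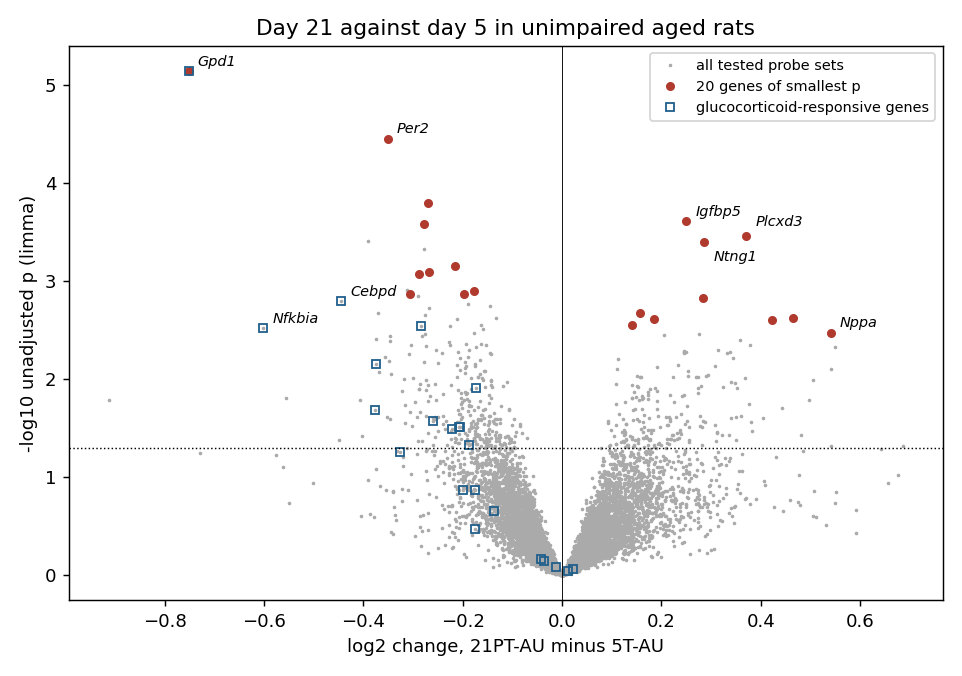
Each point is 1 of 10371 probe sets, with the log2 change of 21PT-AU minus 5T-AU across and -log10 of the unadjusted limma p upward, and the dotted line marks p = 0.05. Filled circles are the 20 genes named for their smallest p (10 in each direction), and open squares are the glucocorticoid-responsive genes, 20 of which lie left of 0.

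Gpd1, the cytosolic glycerol-3-phosphate dehydrogenase that is glucocorticoid-inducible in oligodendrocytes, had the smallest p. Its signals had a lowest value of 742.5, a median of 1105 and a highest value of 1682 in 21PT-AU, against 1527, 1828 and 2342 in 5T-AU. Of the 10 arrays of 5T-AU, 8 lay above every array of 21PT-AU. The change was -0.75 ± 0.16 (SE, 95% CI -1.06 to -0.44, limma adjusted p = 0.0748), which is a ratio of 0.594, and 21PT-AU was lower on 10 of 10 scan days. The second Gpd1 probe set, which is dimmer, gave -0.55 ± 0.41 (SE). Within batches that held both groups the change ran from -0.41 (letter K) to -1.005 (chip lot 2). With fluidics module as a term it was -0.54, and no probe set had an adjusted p under 0.9996. Gpd1 passed when 5T-AI replicate 4, an array of another group that stands apart, was left out (adjusted p = 0.00934) and when only the 20 arrays were fitted (adjusted p = 0.0206). Without 21PT-AU replicates 2 and 5 it was -0.72 (adjusted p = 0.26).

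Per2, a repressor of the circadian clock that glucocorticoids also induce in mouse tissues, had the next smallest p. Its signals had a lowest value of 375, a median of 470.3 and a highest value of 661.2 in 21PT-AU, against 514.5, 623.6 and 684.5 in 5T-AU. The highest 21PT-AU signals, 591.4 and 661.2, were those of replicates 2 and 5, and the other 8 did not exceed 516.1. The change was -0.35 ± 0.08 (SE, 95% CI -0.51 to -0.19, limma adjusted p = 0.182), a ratio of 0.784, with 21PT-AU lower on 8 of 10 scan days. Without replicates 2 and 5 it was -0.45 (adjusted p = 0.00214), the one probe set that passed in that setting. That setting was added after the data were seen. It takes out the 2 highest Per2 signals of 21PT-AU, so the fall had to become larger. Within chip lots the change ran from -0.32 to -0.41.

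The 250 bases before the RefSeq start of Per2 and of Dusp1, the activity- and glucocorticoid-inducible phosphatase described below, are shown because they hold motifs of the clock and of cAMP signalling (RefSeq, GRCr8). The Per2 stretch is chr9:99496994-99497243 on the minus strand, and that of Dusp1 is chr10:17184603-17184852 on the plus strand. Capitals mark matches of 4 motifs searched on both strands, namely the E-box CACGTG, its variant CACGTT, the cAMP response element TGACGTCA and the D-box TTATGNAA.
Per2: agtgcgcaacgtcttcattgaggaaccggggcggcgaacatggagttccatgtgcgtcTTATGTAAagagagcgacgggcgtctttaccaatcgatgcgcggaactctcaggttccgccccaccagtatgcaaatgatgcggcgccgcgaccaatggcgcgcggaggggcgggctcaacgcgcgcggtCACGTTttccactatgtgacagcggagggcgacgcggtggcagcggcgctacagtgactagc
Dusp1: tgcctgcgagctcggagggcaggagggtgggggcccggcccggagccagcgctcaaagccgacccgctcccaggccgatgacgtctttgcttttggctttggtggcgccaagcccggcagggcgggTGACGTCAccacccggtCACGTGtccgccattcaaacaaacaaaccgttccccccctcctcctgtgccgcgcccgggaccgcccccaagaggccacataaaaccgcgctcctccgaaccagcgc
In Per2 the match to CACGTT begins 62 bases before the start and that to TTATGNAA 192 bases before it, and in Dusp1 TGACGTCA begins 124 and CACGTG 107 bases before it. The marked matches do not overlap. Of 33469 rat promoters of this length, CACGTG was found in 5.59%, CACGTT in 4.07%, TGACGTCA in 1.59% and TTATGNAA in 3.28%. Among 17 promoters of clock genes, 5 (29.4%) held CACGTG and 3 (17.6%) CACGTT. A match is a string of letters and not a measured site.

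**Figure D3:**
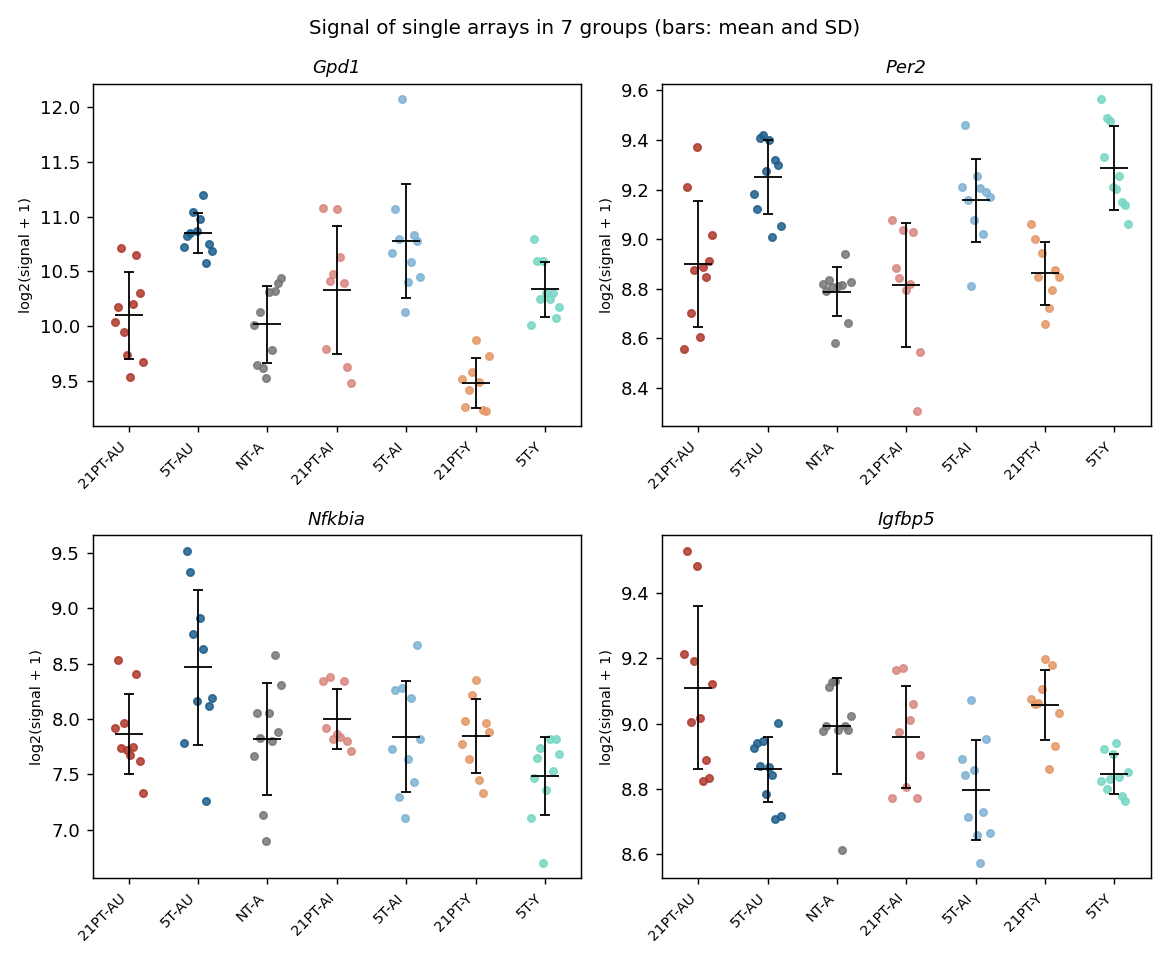
Signal of Gpd1, Per2, Nfkbia and Igfbp5 on a log2(signal + 1) scale, with 1 point per array in 7 groups and bars for the mean and SD (n = 9 or 10). For Gpd1, 8 of 10 arrays of 5T-AU lie above every array of 21PT-AU, and the 2 highest 21PT-AU points for Per2 and Igfbp5 are replicates 2 and 5.

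The untrained aged rats were set beside both groups, though each comparison with NT-A shares arrays with the main one. Gpd1 and Per2 were picked through the same 5T-AU arrays, so high values there enter both differences. NT-A rats were not trained and so not chosen by performance. Training and the choice of unimpaired rats therefore cannot be told apart in these comparisons. Signals of Gpd1 in NT-A had a lowest value of 735.5, a median of 1077 and a highest value of 1391, and those of Per2 in NT-A were 381.3, 449 and 489.5. On day 5, Gpd1 was above NT-A by 0.83 (95% CI 0.52 to 1.14, limma adjusted p = 0.00516) and Per2 by 0.46 (95% CI 0.30 to 0.62, adjusted p = 0.00166). On day 21 the differences from NT-A were 0.08 for Gpd1 (95% CI -0.23 to 0.39) and 0.11 for Per2 (95% CI -0.05 to 0.27). Both genes were therefore higher on day 5 than in NT-A, and neither passed on day 21 against NT-A, with limma adjusted p-values of 0.986 and 0.943.

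A further gene, Ptp4a3, which encodes a protein tyrosine phosphatase, was also higher on day 5 than in NT-A. The difference was 0.49 (95% CI 0.28 to 0.70, limma adjusted p = 0.0359), and the gene was named after its values were seen. Its signals had a lowest value of 576.2, a median of 652.7 and a highest value of 826.9 in 21PT-AU, against 625.4, 797.3 and 937 in 5T-AU and 450, 550.3 and 729.4 in NT-A. Its change between the 2 times was -0.24 ± 0.10 (SE, adjusted p = 0.996). These 3 were all the probe sets (0.0289%) that passed on day 5 against NT-A, and 0 (0%) passed on day 21 against NT-A, where 524 (5.05%) had an unadjusted p under 0.05. With fluidics module as a term, with the code letter as a term or without the rats of letter L, none passed on day 5, the lowest adjusted p being 0.256, 0.134 and 0.0657 in turn. NT-A had 8 arrays in module 4 and 2 in module 3.

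The genes known to respond to glucocorticoids were mostly lower 21 days after training. Of 26 listed genes on the array 22 were measured, and 20 were lower and 2 higher in 21PT-AU. None passed (0 of 22, against 0% of all probe sets). An unadjusted p under 0.05 was found for 12, all lower, against 2.83% of all probe sets that were lower at that level. The list was chosen with earlier results of these data known, so this share describes its members and is not a test of them. The median change was -0.20, against -0.000249 over all tested probe sets. Against NT-A, the same 22 genes had a median of 0.23 on day 5 and of 0.04 on day 21. Gpd1 is 1 of them, Per1 stands in the clock list too, and Dusp1 among the immediate early genes.

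The 12 genes had several kinds of role. Nfkbia, which encodes the inhibitor that holds NF-kappa B in the cytoplasm, had signals of 159.8, 213.1 and 368.9 (lowest, median, highest) in 21PT-AU, against 151.8, 342.8 and 731.3 in 5T-AU. The 5T-AU arrays were thus much more spread, and 5 of 10 lay above every array of 21PT-AU. The change was -0.60 ± 0.20 (SE, 95% CI -0.99 to -0.21, limma adjusted p = 0.814). Cebpd, a transcription factor of stress and inflammation, had signals of 172.3, 264.5 and 353.2 in 21PT-AU, against 261.5, 338.3 and 419.4 in 5T-AU, a change of -0.45 (95% CI -0.72 to -0.17). Its related factor Cebpb gave -0.21.

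Dusp1, which switches off MAP kinases, had signals of 403.6, 573 and 903.4 in 21PT-AU, against 377.1, 818 and 1192 in 5T-AU, and Ddit4, a stress-induced inhibitor of mTORC1, 522.2, 659.7 and 805.6 in 21PT-AU, against 445.9, 967.8 and 1314 in 5T-AU. Their changes were -0.38 (95% CI -0.69 to -0.06) and -0.37 (95% CI -0.64 to -0.11). Fkbp5, the co-chaperone that dampens the glucocorticoid receptor, had signals of 332.8, 452.8 and 562.9 in 21PT-AU, against 429.2, 571.5 and 633.4 in 5T-AU, a change of -0.28 (95% CI -0.47 to -0.10). In NT-A Fkbp5 had 345, 447.3 and 539.8, so that the 21PT-AU range lay close to it.

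Of the other members Sgk1, a kinase that controls ion channels, was at -0.33 (unadjusted p = 0.0553). Of those among the 12, the cell cycle inhibitor Cdkn1a gave -0.26, the sulfotransferase Sult1a1 -0.22, the leucine zipper protein Tsc22d3 -0.20, the astrocyte connexin Gjb6 -0.19 and the transcription factor Klf9 -0.17. A second, dimmer probe set of Klf9 gave 0.39 ± 0.28 (SE). The 2 higher genes were Tgm2 at 0.02 and Angptl4 at 0.01.

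**Figure D4:**
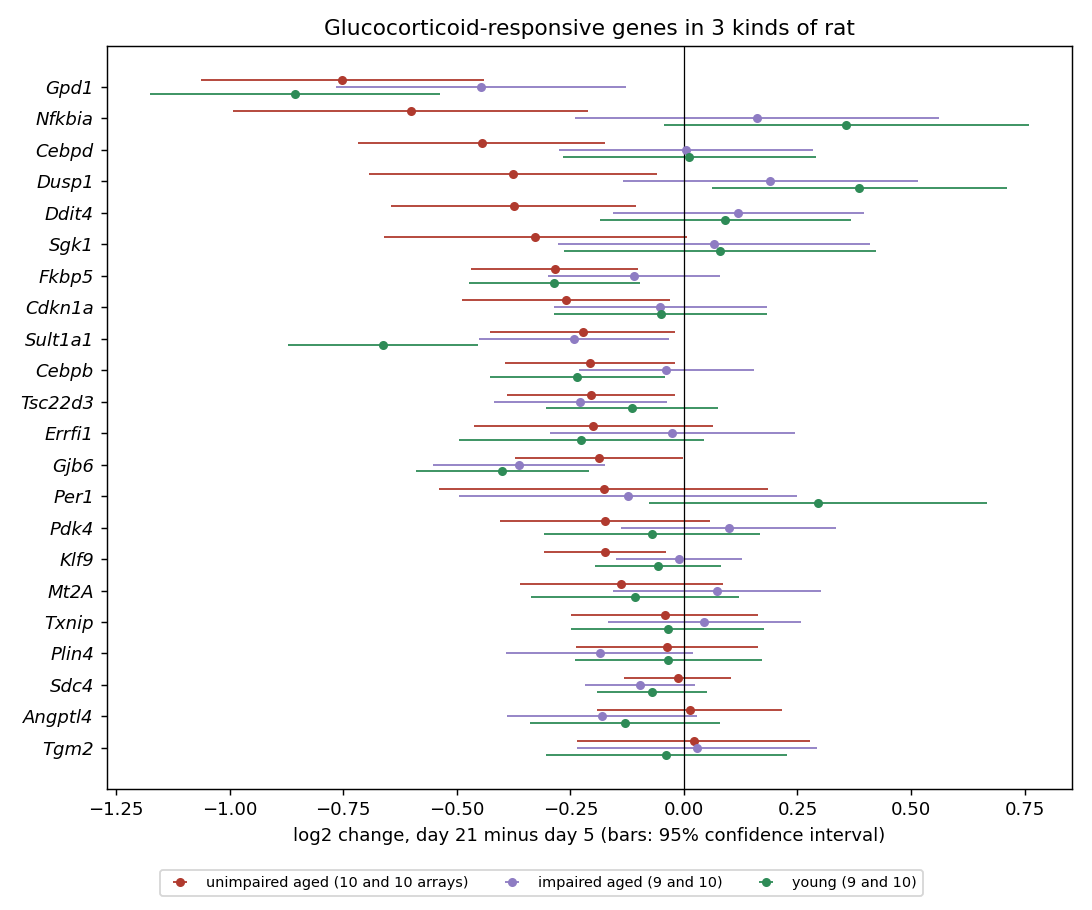
Log2 change of day 21 minus day 5 with its 95% confidence interval for 22 glucocorticoid-responsive genes, in unimpaired aged rats (10 and 10 arrays), impaired aged rats (9 and 10) and young rats (9 and 10). In unimpaired rats 20 points lie left of 0, while Nfkbia, Dusp1 and Ddit4 lie right of 0 and Cebpd close to 0 in impaired and young rats.

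The other kinds of rat were set beside the unimpaired ones gene by gene. Of the 12 genes, 8 were lower also in impaired and in young rats, among them Fkbp5 with -0.11 and -0.29, Sult1a1 with -0.24 and -0.66, and Gjb6 with -0.36 and -0.40. Some of the 8 were close to 0, namely Klf9 with -0.0099 and -0.056 and Cdkn1a with -0.052 and -0.051. Cebpb gave -0.038 in impaired and -0.23 in young rats. The other 4, Nfkbia, Cebpd, Dusp1 and Ddit4, were not lower there. Nfkbia gave 0.16 in impaired and 0.36 in young rats, Dusp1 0.19 and 0.39, and Ddit4 0.12 and 0.09. Cebpd was close to 0, with 0.0046 and 0.011. The difference of the Nfkbia change between unimpaired and young rats was -0.96 (95% CI -1.52 to -0.40, limma adjusted p = 0.714), and that between unimpaired and impaired rats was -0.76 (95% CI -1.32 to -0.20, adjusted p = 0.999). Neither passed. The median change of the 22 genes was -0.03 in impaired and -0.06 in young rats.

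A level for the whole list was computed per array as the mean over its genes of the log2 deviation from each gene's mean over all arrays. It averaged -0.01 ± 0.08 in 21PT-AU, 0.22 ± 0.17 in 5T-AU and -0.04 ± 0.13 in NT-A (SD, n = 10 each). The 5T-AU arrays fell into 2 sets that did not touch. In 6 of them the level was between 0.239 and 0.483, above every 21PT-AU array (-0.115 to 0.106), and in the other 4 it was between -0.0704 and 0.0915. The 6 were the 5 rats of letter L and replicate 7, of letter N, and all 6 lay in fluidics module 3, which also held 1 array of the low set, with a level of 0.0742. The letter and the module moved with the high level in part, and their part in it was not tested.

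Within letter N, with 5 rats in 21PT-AU and 4 in 5T-AU, the list level was lower in 21PT-AU by a difference of -0.163, or of -0.0499 without 5T-AU replicate 7. Within letter K, with 3 rats and 1, the difference was -0.0271. Within the 3 chip lots it was -0.173 to -0.329, and in chip lot 3 it was -0.0606 in place of -0.173 without replicate 7. It was lower on 9 of 10 scan days. Without the rats of letter L the median change of the 22 genes was -0.11, and 4 had an unadjusted p under 0.05, against 3.78% of all probe sets in that setting. With fluidics module as a term it was -0.12, and 3 had one, against 2.54% of all. Without 21PT-AU replicates 2 and 5 it was -0.23.

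**Figure D5:**
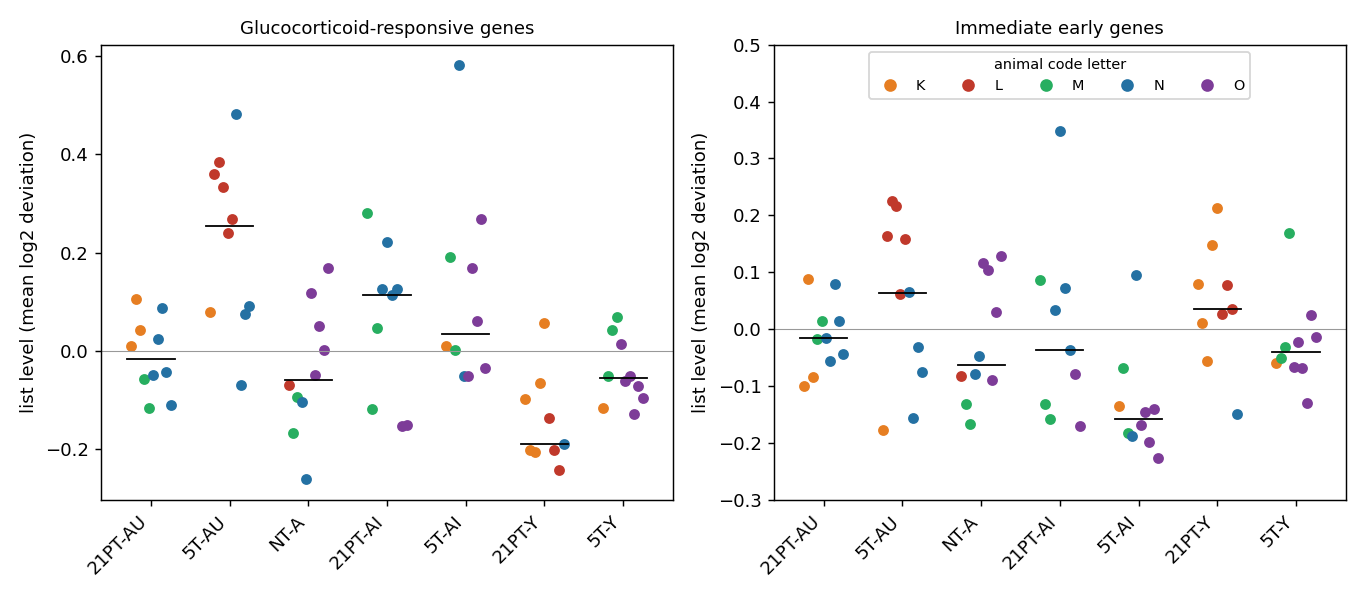
List level per array (mean log2 deviation) for glucocorticoid-responsive genes and immediate early genes in 7 groups, with 1 point per array coloured by the letter of the animal's code and a bar for the group median. In 5T-AU the 5 rats of letter L and 1 of letter N have glucocorticoid levels of 0.239 to 0.483, above all 21PT-AU arrays.

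The single genes differed in how far they followed the letter. Nfkbia signals in 5T-AU had a median of 481.5 in the 5 rats of letter L and of 276.4 in the 5 of letters K and N. The medians of Dusp1 in 5T-AU were 1081 with letter L and 591.6 with K and N, and those of Ddit4 were 1158 and 644. Gpd1 medians were 1875 with letter L and 1690 with K and N, while Cebpd was lower with L, 288.5 against 386.5. Without the rats of letter L the change was -0.13 for Nfkbia, 0.053 for Dusp1 and 0.018 for Ddit4, while it was -0.69 for Gpd1, -0.28 for Per2, -0.54 for Cebpd and -0.28 for Fkbp5.

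Immediate early genes, which mark recent neuronal activity, had little common direction. Of 29 on the array 24 were measured, 8 higher and 16 lower in 21PT-AU, and 0 passed. The median change was -0.05. An unadjusted p under 0.05 was found for 3, all lower, against 2.83% of all probe sets. They were Dusp1, Egr1, a zinc finger factor of synaptic plasticity, at -0.20, and Dusp6, a phosphatase of ERK, at -0.16. Egr1 signals were 1463, 2028 and 2224 in 21PT-AU, against 1741, 2370 and 2603 in 5T-AU. Within 5T-AU, Egr1 ran from 2441 to 2603 in the 5 rats of letter L. In the 5 of letters K and N it ran from 1741 to 2300, with a median of 2072.

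Arc, whose protein regulates AMPA receptor uptake at synapses, had signals of 730.2, 803.6 and 1025 in 21PT-AU, against 676.4, 830.4 and 1302 in 5T-AU. The groups overlapped, and the change was -0.16 ± 0.12 (SE, 95% CI -0.39 to 0.08, limma adjusted p = 0.996). In 5T-AU the 5 rats of letter L had Arc signals of 889.4 to 1302 and the other 5 of 676.4 to 771.3, and without letter L the change was 0.19. Fos, the AP-1 subunit used as a marker of recent activity, had signals of 99, 135 and 231.1 in 21PT-AU, against 60.6, 146.2 and 266.3 in 5T-AU, a change of 0.05 (95% CI -0.48 to 0.58). It was -0.047 without replicates 2 and 5.

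The list as a whole had a median of 0.12 in impaired rats, with 18 genes higher and 6 lower, and of 0.02 in young rats, with 14 higher and 10 lower. Arc gave 0.51 in impaired rats (adjusted p = 0.171) and 0.15 in young rats, and Fos gave 0.90 in both. The difference of the Arc change between unimpaired and impaired rats was -0.67 (95% CI -1.003 to -0.33, unadjusted p = 0.000165, limma adjusted p = 0.999). That of Nr4a1, an orphan nuclear receptor induced by activity, was -0.43 (adjusted p = 0.999), its changes being -0.12 in unimpaired and 0.31 in impaired rats. Without the rats of letter L the Nr4a1 change in unimpaired rats was 0.097. Neither difference passed, and Arc and Nr4a1 were 2 of the 347 probe sets (3.35%) with an unadjusted p under 0.05 in this test, in which 0 (0%) passed.

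Homer1, a postsynaptic scaffold gene with a short activity-induced form, was represented by several probe sets. The one with the smallest p had signals of 376.1, 604.3 and 888.7 in 21PT-AU, against 578.2, 740.3 and 953.1 in 5T-AU, a change of -0.35 ± 0.12 (SE, 95% CI -0.58 to -0.12, limma adjusted p = 0.814). The others gave -0.56, -0.06, 0.04 and 0.14. In young rats the first fell by 0.88 (adjusted p = 1.37e-06), and the change in unimpaired rats was less negative by 0.54 (95% CI 0.21 to 0.87, adjusted p = 0.714), which did not pass.

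Among clock genes, 13 of 16 were measured, 2 higher and 11 lower in 21PT-AU, with a median of -0.08. None passed. Those with an unadjusted p under 0.05 were Per2, Bhlhe41 and Csnk1d, all lower, against 2.83% of all probe sets. Bhlhe41, a repressor of Clock and Bmal1, had signals of 1590, 1923 and 2188 in 21PT-AU, against 1921, 2202 and 2478 in 5T-AU, a change of -0.20 ± 0.06 (SE, 95% CI -0.32 to -0.08, limma adjusted p = 0.814), and 21PT-AU was lower on 10 of 10 scan days. The kinase gene Csnk1d gave -0.19 by 1 probe set and 0.11 and 0.04 by the others. Of the clock outputs, Dbp gave -0.16 and Tef 0.64 ± 0.33 (SE), Tef being a dim probe set with 5T-AU signals between 32.9 and 226. Per1 gave -0.18 and Nr1d2 -0.14.

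The genes of smallest p that were lower in 21PT-AU were, after Gpd1 and Per2, Paxbp1, Endod1, Usp54, Mobp, Cdc23, Ptpn11, Wipf3 and Bhlhe41, with changes between -0.31 and -0.18. Paxbp1 had signals of 272.1, 320.9 and 378 in 21PT-AU, against 292.6, 385.5 and 439.6 in 5T-AU, a change of -0.27 ± 0.07 (SE, limma adjusted p = 0.513). Mobp, a myelin protein gene, gave -0.27, and -0.21 without replicates 2 and 5, while its other 2 probe sets gave -0.07 and 0.12. Wipf3, an actin regulator, was at 1809 and 1503 in 21PT-AU replicates 2 and 5 and at 2482 or more in the other 8, and its change of -0.31 was -0.14 without the pair.

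The genes of smallest p that were higher in 21PT-AU were Igfbp5, Plcxd3, Ntng1, Scrg1, Pea15, Tpd52l1, Hdgfl3, Trhr, Gpi and Nppa, with changes between 0.14 and 0.54, and in 5 of the 10 both replicates 2 and 5 lay above the other 8 arrays of 21PT-AU. Igfbp5, which binds insulin-like growth factors, had signals of 452.2, 536.6 and 737.7 in 21PT-AU, against 416.8, 467 and 511.6 in 5T-AU, a change of 0.25 ± 0.07 (SE, limma adjusted p = 0.513), and of 0.15 without the pair. Plcxd3 gave 0.37 with the pair and 0.18 without it. Tpd52l1 gave 0.47 and 0.16, Trhr, the receptor for thyrotropin-releasing hormone, 0.42 and 0.12, and Nppa, the precursor of atrial natriuretic peptide, 0.54 and 0.33.

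Netrin G1 (Ntng1), a membrane protein of axons, was at 0.24 without the pair. It had signals of 184.8, 239.6 and 292.8 in 21PT-AU, against 166.3, 192.4 and 232.9 in 5T-AU and 188.6, 242.1 and 256.6 in NT-A. The change was 0.29 ± 0.08 (SE, 95% CI 0.13 to 0.44, limma adjusted p = 0.513). It was 0.26 in impaired and 0.46 in young rats, and in young rats it passed (adjusted p = 0.000454). Against NT-A the difference was -0.29 on day 5 and close to 0 on day 21.

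The comparison was repeated in young and impaired rats, which share no array with the unimpaired ones. In young rats 10 probe sets passed (0.0964%), 9 lower (0.0868%) and 1 higher on day 21. All 10 had the same sign in unimpaired rats, where 5198 of all 10371 probe sets were lower and 5173 higher. Of the 10, 7 had an unadjusted p under 0.05 in unimpaired rats, against 4.72% of all probe sets. With fluidics module as a term 3 passed in young rats, and with the actin ratio as a covariate 6. The 10 stood for Gpd1 (2 probe sets), Hspb1, Homer1, Sult1a1, Per2, Cryab, Kif26b and Usp54, which were lower, and Ntng1. Gpd1 fell by 0.86 in young rats (limma adjusted p = 0.00245), and its change was -0.45 in impaired rats (adjusted p = 0.981). Per2 fell by 0.43 in young rats (adjusted p = 0.00347), and its change was -0.34 in impaired rats (adjusted p = 0.171).

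In impaired rats 1 probe set passed (0.00964%), that of the adenylyl cyclase gene Adcy8, which rose by 0.64 (limma adjusted p = 0.0355). None passed under quantile normalization, with scan day or fluidics module in the fit, without 5T-AI replicate 4, or with only the arrays of impaired rats. In unimpaired rats it had signals of 104.4, 145.8 and 201.9 in 21PT-AU, against 105.4, 111.5 and 143.9 in 5T-AU, a change of 0.28 (95% CI 0.03 to 0.53, adjusted p = 0.996). Of the 10 higher genes of smallest p in unimpaired rats, 9 had the same sign in impaired and 6 in young rats, and of the 10 lower ones 7 and 9. Across all probe sets the change correlated with that in impaired rats at r = 0.157 and with that in young rats at r = -0.15, which describes these probe sets and carries no test.

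No change differed between the kinds of rat by the test of the difference itself, with 0 of 10371 (0%) against impaired and 0 (0%) against young rats. At an unadjusted p under 0.05 there were 347 (3.35%) and 706 (6.81%). The smallest p against young rats was that of Brk1, a subunit of the WAVE complex that drives actin branching, with -0.15 in unimpaired and 0.28 in young rats, a difference of -0.42 (limma adjusted p = 0.337). Against impaired rats the largest positive difference among those named was that of the transporter gene Slco2b1, 0.72, its changes being 0.23 in unimpaired and -0.49 in impaired rats (adjusted p = 0.999), and its brighter probe set gave 0.01 in unimpaired rats.

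The markers of cell types stayed near the median of all probe sets. Of 40 lists 39 had at least 5 measured genes, and 38 of these had a median change between -0.1 and 0.1, the exception being the glucocorticoid-responsive genes. None held a gene that passed. Microglia markers (21 genes) had a median of 0.01, astrocyte markers (26) of 0.02 and interneuron markers (14) of 0.08, the last being 0.01 without replicates 2 and 5. Gfap, the astrocyte filament gene, gave -0.05 (95% CI -0.16 to 0.06). Oligodendrocyte and myelin genes, of which 25 of 25 were measured, had a median of -0.05, and 19 were lower, but the median was 0.02 without replicates 2 and 5, whose levels on this list, -0.23 and -0.29, were below those of the other 8 arrays. Mbp, the major myelin basic protein gene, gave 0.08 and 0.03 by its 2 probe sets, while Mog, on the outer myelin surface, gave -0.19 and the chaperone gene Cryab -0.25. Ttr, the transthyretin gene of choroid plexus, had signals of 108.2, 160.5 and 248.3 in 21PT-AU, against 104.1, 170.1 and 802.1 in 5T-AU, and gave -0.34 (95% CI -0.86 to 0.18).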

How the data were processed

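The values analysed are the signal intensities that the authors deposited for each array, for which the submitters' processing notes name MAS5 and GCOS 1.1. No further normalization was applied. Control probe sets were left out, and probe sets with a signal above the 40th percentile of the array on 9 or more arrays were tested, which left 10371 probe sets (8695 with 1 gene symbol, 7489 genes). Log2 of signal plus a pseudocount of 1 was fitted in limma 3.58.1 (R 4.3.3, lmFit and eBayes with trend) as 8 group means over all 78 arrays, with 70 residual degrees of freedom, and p-values were adjusted by the method of Benjamini and Hochberg over all tested probe sets. Fold changes are on the log2(signal + 1) scale, and the added 1 shrinks them little at the mean filter level of log2 7.34. Changes of dim probe sets can be large and imprecise, as for Kcnab2 at 0.59 ± 0.66 (SE) in unimpaired rats. Intervals are those of the fit at 95%.

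Symbols came from the platform annotation. For each gene the probe set of smallest p was described, and for lists the brightest. Named genes were those of smallest p up to 10 in each direction, a fixed set of 19 genes, and for each difference between kinds of rat the 5 of smallest p in each direction, and not every one is printed. Genes named outside this rule, including the list members, were chosen after their values were seen. The members of the comparison and the lists were chosen with earlier results of these data known. Promoters came from RefSeq (GRCr8), and proteins were not used. The fit was tested on simulated data. Tables and figures used Python 3.11.15, pandas 2.3.3, numpy 2.4.6, scipy 1.17.1 and matplotlib 3.10.9. In all 17 alternative settings were tried, on normalization, pseudocount, filter, batch terms, RNA quality and left-out arrays, and 5 of them (those without letter L, without 5T-AU replicate 7, without 21PT-AU replicates 2 and 5, and the scan day block in 2 other forms) were added after the data were seen.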

Additional observations from a re-analysis of the deposited data

Results flagged for a closer look

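Within each group of 10 arrays, the highest or lowest log2 signal was set against the others for the named genes, and 6 of 126 pairs of group and gene had a gap to the nearest array that made up more than 0.466 of the group's range. Chance gives about 1 in 20. In 21PT-AU, Arc in replicate 8 was highest at 10 (the others 9.51 to 9.77), and Egr1 in replicate 10 was lowest at 10.52 (the others 10.9 to 11.1). In 5T-AU, replicate 7 was highest in Slc2a1, which carries glucose across vessel walls in the brain, at 10.54 (the others 9.62 to 10) and lowest in Cryab at 10.6 (the others 10.9 to 11.2). Replicate 3 of 5T-AU was lowest in Paxbp1 at 8.20 (the others 8.52 to 8.78), and replicate 1 of 5T-AU was lowest in Nppa at 6.13 (the others 6.84 to 7.48).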

How the results depend on the processing

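The count of 0 passing probe sets in unimpaired rats became 1 without 5T-AI replicate 4 (Gpd1), with only the 20 arrays (Gpd1) and without 21PT-AU replicates 2 and 5 (Per2), the last chosen after seeing the data. It stayed at 0 under the other 14 alternatives, including the replicate block (lowest adjusted p 0.157). Arrays of equal replicate number correlated between -0.248 and 0.335, with 4 of 10 pairs over 0.1. For replicates 1 to 5 these pairs were also the pairs of equal scan day, so the 2 pairings are not separate. Arrays of the same scan day correlated between 0.0543 and 0.269, with 6 of 10 pairs over 0.1, and the main fit did not use scan day. With scan day as a block, 716 probe sets had an unadjusted limma p under 0.05, against 489 in the main fit. The lowest adjusted p was then 0.0573. The call in impaired rats became 0 under quantile normalization, scan day, fluidics module, without 5T-AI replicate 4 and with only its own arrays, and 2 with chip lot or the actin ratio. The 10 in young rats became 3 with module and 6 with the actin ratio. The 3 on day 5 against NT-A became 5 under quantile normalization, the actin ratio, only its own arrays and without 21PT-AU replicates 2 and 5, 6 with a pseudocount of 32, 7 without 5T-AI replicate 4 and 15 with scan day. They became 0 with module, letter, scan day with module, and without letter L. Signs turned in 13 of 850 gene values. Without letter L these were Arc 0.19, Egr2 0.11, Junb 0.045, Nr4a1 0.097, Dusp1 0.053 and Ddit4 0.018. With module Egr2 gave 0.18 and C3 0.013, with scan day and module 0.25 and 0.013, with the Gapdh ratio Bdnf gave -0.011 and Mbp -0.11, and without replicates 2 and 5 Fos gave -0.047. The cause was not tested in any of these.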

Other observations

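Cholesterol synthesis genes were mostly higher 21 days after training, though none passed. Of 27 genes 18 were higher and 9 lower in 21PT-AU, with a median of 0.06, and medians of 0.05 in impaired and 0.10 in young rats. An unadjusted p under 0.05 was found for 3, all higher, against 1.89% of all probe sets. They were Dhcr7, the last enzyme of one branch, at 0.14, the demethylation enzyme Msmo1 at 0.14 and Insig1, which holds SREBP in the endoplasmic reticulum, at 0.14. Antigen presentation genes were higher in 16 of 19 cases, with a median of 0.07 both with and without 21PT-AU replicates 2 and 5. The median was 0.03 without the rats of letter L. Median changes were -0.06 in impaired and -0.03 in young rats. However, the highest 5T-AI array had a level of 1.12 on this list. The group median level was 0.190 in 5T-AI and 0.213 in 21PT-AI, so by group medians impaired rats were not lower on day 21. Cd74, the invariant chain, gave 0.13 in unimpaired rats (95% CI -0.21 to 0.47). GABA and glycine receptor genes were higher in 10 of 11 cases, with a median of 0.06, and 0 had an unadjusted p under 0.05. Genes of blood cells gave 0.18 over 4 genes, all above 0, and 1 array of 21PT-AU other than replicates 2 and 5 had a level of 1.43 on that list.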
